A study of Mus musculus with 9 samples.

Results

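The genes described here are the enzymes and transporters of glycolysis together with the core of the hypoxia response. The list of 35 genes was picked by name, with earlier results of these data known. Members were found as probe sets annotated with the listed symbols. For each gene the probe set with the highest mean among those naming it alone was taken. Of the 35, 32 had a value among 23243 gene rows tested. Aldoa was read from a probe set annotated to both Aldoa and Aldoart1, so its values cannot be assigned to Aldoa alone. For Gpi1, Pfkfb1 and Eno1 no named probe set was analysed here.

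The study profiled mouse T helper 17 (Th17) cultures of 3 genotypes by GeneChip array, with 3 arrays each: wild type (WT), SRG3-deficient (SRG3 cKO) and RORγt-deficient (RORγt KO). Smarcc1 encodes SRG3, which forms part of the core of Swi/Snf, a complex that remodels chromatin. RORγt is a nuclear receptor known to direct Th17 differentiation. All 9 cultures began as sorted naive CD4+ T cells (CD4+CD25-CD44lowCD62Lhigh) from spleen. They spent 60 h on plates coated with anti-CD3 (10 µg/ml) and anti-CD28 (10 µg/ml). The medium held TGF-β1 at 1 ng/ml, IL-6 at 30 µg/ml as the labels write it, and antibodies against IL-4 (2 µg/ml) and IFN-γ (2 µg/ml). Replicates are called biological in the labels, but separate mice or cultures are not named, so the p-values cover only how much these arrays differ among themselves, which may be technical. The Cre driver of the conditional knockout and the age and sex of the mice are not given in the sources used here.

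Glycolysis splits glucose into pyruvate in the cytosol, and activated T cells pass much of that pyruvate on to lactate even when oxygen is present. HIF-1α, encoded by Hif1a, is a transcription factor held low in normal oxygen by prolyl hydroxylases of the Egln family, and it is stabilised when oxygen falls and in T cells receiving antigen and cytokine signals. Its known targets include glucose transporters, most glycolytic enzymes and the kinases that keep pyruvate out of mitochondria, and it is known to favour Th17 over regulatory T cell differentiation.

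Smarcc1 log2 intensity in WT was 10.13, 10.32 and 10.39, against 8.47, 8.79 and 8.62 in SRG3 cKO and 10.12, 10.04 and 10.19 in RORγt KO. It fell by 1.65 in SRG3 cKO (SE 0.09, limma adjusted p = 0.000232), and the groups did not overlap. No such check of the RORγt KO labels was made. The markers of CD4 T cells were well above the array medians of 7.12 to 7.14 (Cd4 at 11.09 to 11.57 over the 9 arrays), and Il17a, the signature Th17 cytokine, spanned 6.72 to 11.14. Of 6 Th17 markers, 3 fell in SRG3 cKO and 5 in RORγt KO. No marker of B cells (4 measured), myeloid cells (5), CD8 T and NK cells (4) or erythroid cells (2) was called by limma in either comparison with WT (1 in each at an unadjusted p below 0.05). All of them lay at or below 8.05 in every array except Cd8b1, at 8.41 to 8.69. On the first principal component, with 28.7% of the variance, WT array 1 stood apart at -1.4 from the other WT arrays at -10.68 and -11.94, and RORγt KO array 3 at 3.38 from the others at 10.16 and 12.36, so the calls are given with and without each array. In bulk cultures such as these, fewer cells expressing a gene and less of its RNA per cell cannot be told apart.

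Of the 32 measured genes 3 passed the test in a comparison with WT, all of them higher in a knockout and none by a large fold. In SRG3 cKO cultures Aldoc, an aldolase isozyme, was 1.45-fold higher. In RORγt KO cultures Hif1a was 1.19-fold and Eno3, an enolase isozyme, 1.16-fold higher. No member was called lower. At an unadjusted p below 0.05 limma gave 9 members in SRG3 cKO, 7 higher and 2 lower (Hk2 and Pgam1). In RORγt KO it gave 8, all higher. The share of all rows below 0.05 before adjustment was not counted, here or for the markers and further lists. These unadjusted counts therefore have no background beside them. Between the knockouts no member was called in either direction.

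In SRG3 cKO against WT, 1 of the 32 members was called at an adjusted p below 0.05, beside 0.482% of all gene rows (112 of 23243, 58 higher and 54 lower). In RORγt KO against WT, 2 of 32 were called, beside 0.916% of all rows (213, with 140 higher and 73 lower). The median difference from WT over the members was 0.05 in SRG3 cKO and 0.08 in RORγt KO on the log2 scale, beside -0.01 and 0.00 over all rows. The difference was above 0 for 26 of 32 members in SRG3 cKO (81.2%, against 46.5% of all rows) and for 22 of 32 in RORγt KO (68.8%, against 48.4%). The sizes were small: 29 members in SRG3 cKO and 27 in RORγt KO differed from WT by less than 0.25 in either direction. The median half-width of the members' 95% intervals was 0.13, before any adjustment for the number of rows. Passing the adjusted threshold took a larger difference. Pfkm in SRG3 cKO, at 0.20 with an interval from 0.05 to 0.35, was not called. The comparisons with WT share the same 3 WT arrays.

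Groups that did not overlap were also counted. In SRG3 cKO, 7 members had all 3 arrays above all 3 WT arrays (7.03% of all rows did), namely Pfkm, Aldoc, Tpi1, Eno3, Pdk3, Egln1 and Egln3, and 1 member, Pgam1, had all 3 below (6.51% of all rows). In RORγt KO, 4 members lay wholly above WT (6.93% of all rows), namely Aldoc, Eno3, Hif1a and Egln3, and none lay wholly below (7.31% of all rows). Aldoc, Eno3 and Egln3 were on both lists.

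**Figure D1:**
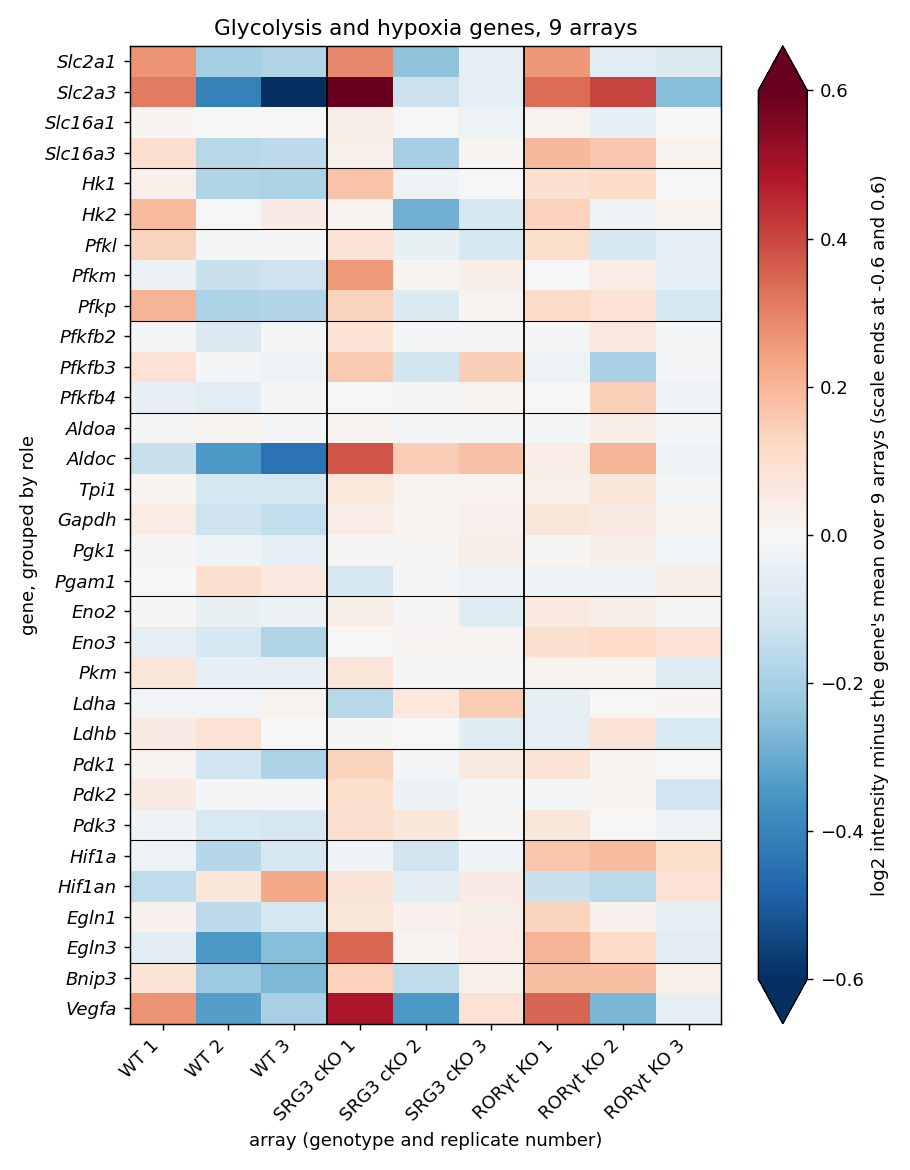
Heat map of the 32 measured genes (vertical axis, grouped by role) in the 9 arrays (horizontal axis), coloured by log2 intensity minus the gene's mean over the 9 arrays, with the scale ending at -0.6 and 0.6. Blue in WT arrays 2 and 3 for Slc2a3, Aldoc and Egln3, and red in the arrays numbered 1 for Slc2a1, Slc2a3 and Vegfa, are among the strongest colours.

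The promoter windows of the 3 called genes, and of Egln3 as the HIF-system member with the largest differences from WT, are printed for reference, since the hypoxia response element to which HIF-1 binds has a short known core. Each window holds the 250 bases before an annotated start in RefSeq (GRCm38.p6), 5′ to 3′ on the gene's strand, and Aldoc has more than 1 such start. Capitals mark ACGTG or GCGTG on either strand (CACGT and CACGC are the reverse complements), with overlapping matches merged. The windows are chr11:78322823-78323072 (+) and chr11:78323948-78324197 (+) for Aldoc, chr11:70656926-70657175 (+) for Eno3, chr12:73907617-73907866 (+) for Hif1a and chr12:54203875-54204124 (-) for Egln3.
Aldoc, start 1: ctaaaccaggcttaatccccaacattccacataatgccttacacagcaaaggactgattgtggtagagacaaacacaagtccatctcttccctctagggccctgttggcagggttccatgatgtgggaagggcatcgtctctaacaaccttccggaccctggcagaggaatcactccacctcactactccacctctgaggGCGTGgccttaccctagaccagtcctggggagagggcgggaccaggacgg
Aldoc, start 2: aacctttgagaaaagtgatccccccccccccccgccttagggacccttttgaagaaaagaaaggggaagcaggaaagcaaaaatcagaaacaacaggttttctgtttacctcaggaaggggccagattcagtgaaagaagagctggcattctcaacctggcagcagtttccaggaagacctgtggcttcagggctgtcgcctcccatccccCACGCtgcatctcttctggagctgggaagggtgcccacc
Eno3: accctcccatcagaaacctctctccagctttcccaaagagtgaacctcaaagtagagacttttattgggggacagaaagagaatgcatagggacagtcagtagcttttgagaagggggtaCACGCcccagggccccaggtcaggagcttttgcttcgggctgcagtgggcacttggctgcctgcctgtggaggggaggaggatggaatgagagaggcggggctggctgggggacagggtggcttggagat
Hif1a: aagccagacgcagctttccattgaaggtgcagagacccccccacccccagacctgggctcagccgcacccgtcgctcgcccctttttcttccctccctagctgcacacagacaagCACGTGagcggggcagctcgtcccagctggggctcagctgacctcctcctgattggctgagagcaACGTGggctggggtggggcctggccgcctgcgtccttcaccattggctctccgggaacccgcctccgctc
Egln3: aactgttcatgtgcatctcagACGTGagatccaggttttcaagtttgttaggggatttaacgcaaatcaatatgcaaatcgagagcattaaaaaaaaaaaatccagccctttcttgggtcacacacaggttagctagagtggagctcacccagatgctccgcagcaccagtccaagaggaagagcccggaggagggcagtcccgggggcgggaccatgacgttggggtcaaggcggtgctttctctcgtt
The windows of Aldoc (first match at -50 and -39 from the starts), Eno3 (-130) and Egln3 (-229) each held 1 match. The Hif1a window held 3, of which 2 overlap as CACGTG at -135 and the last lies farther downstream. Of the 35 listed genes 34 had an entry, with 54 windows, and 40 of those (74.1%) held a match. Of all 32851 windows of the same length 38.6% did, a background that was not matched for base composition. The list itself was picked for glycolysis and the hypoxia response. Windows of the same gene can overlap, as for Eno1, so that a match is counted more than once. A match describes letters in a window and shows no binding.

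Among the transporters, Slc2a3 had the largest differences from WT and the widest spread. Slc2a3 encodes the high-affinity glucose transporter GLUT3. Its log2 intensity was 9.64, 8.92 and 8.52 in WT, 9.93, 9.20 and 9.27 in SRG3 cKO, and 9.66, 9.73 and 9.07 in RORγt KO. WT array 1 was as high as the knockout arrays, so the groups overlapped. The differences of 0.44 (SE 0.29, limma adjusted p = 0.628) and 0.46 (SE 0.29, adjusted p = 0.573) had 95% intervals from -0.22 to 1.10 and from -0.20 to 1.12. Single arrays moved them widely: from 0.19 without WT array 3 to 0.75 without WT array 1 in SRG3 cKO, and from 0.20 to 0.77 without the same arrays in RORγt KO. Slc16a3 encodes the lactate exporter MCT4, and it was 9.98, 9.71 and 9.72 in WT, 9.91, 9.68 and 9.89 in SRG3 cKO, and 10.07, 10.04 and 9.90 in RORγt KO. It differed from WT by 0.02 in SRG3 cKO and 0.20 in RORγt KO (adjusted p = 0.948 and 0.388), and the groups overlapped. Slc2a1, the main glucose transporter of activated T cells (GLUT1), differed from WT by 0.04 and 0.08, and Slc16a1 (the lactate carrier MCT1) by 0.00 and -0.01. None of the 4 transporters was called.

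The hexokinases trap glucose in the cell by phosphorylating it, and the 2 measured isozymes differed from WT in opposite directions in SRG3 cKO without passing the test. Hk2, the inducible isozyme, was 10.42, 10.23 and 10.28 in WT, 10.24, 9.94 and 10.13 in SRG3 cKO, and 10.37, 10.21 and 10.25 in RORγt KO. Its difference of -0.21 in SRG3 cKO was the lowest of any member (SE 0.08, 95% interval -0.40 to -0.03, limma adjusted p = 0.399), and SRG3 cKO array 1 overlapped the WT range. Hk1, the constitutive isozyme, was 9.92, 9.71 and 9.70 in WT, 10.06, 9.86 and 9.89 in SRG3 cKO, and 9.98, 10.00 and 9.89 in RORγt KO. It differed from WT by 0.16 (adjusted p = 0.463) and 0.18 (adjusted p = 0.347), with WT array 1 inside the range of both knockouts.

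The phosphofructokinases carry out the committed step of glycolysis. Pfkm, the muscle-type subunit, was 7.58, 7.48 and 7.49 in WT, 7.87, 7.63 and 7.65 in SRG3 cKO, and 7.62, 7.66 and 7.56 in RORγt KO. All SRG3 cKO arrays lay above WT, with a difference of 0.20 that missed the threshold (SE 0.07, limma adjusted p = 0.311), while RORγt KO overlapped WT at 0.10 (adjusted p = 0.592). Pfkl and Pfkp, the liver and platelet subunits, differed from WT by -0.06 and 0.07 in SRG3 cKO and by -0.06 and 0.08 in RORγt KO. The Pfkfb enzymes make and remove the sugar bisphosphate that activates phosphofructokinase. Pfkfb3, the isozyme with the strongest kinase activity, was 8.51, 8.41 and 8.39 in WT, 8.58, 8.31 and 8.57 in SRG3 cKO, and 8.39, 8.23 and 8.41 in RORγt KO, and the groups overlapped. Pfkfb2 was 7.74, 7.66 and 7.74 in WT, 7.83, 7.74 and 7.74 in SRG3 cKO, and 7.74, 7.81 and 7.74 in RORγt KO. Over the 3 measured Pfkfb genes, Pfkfb4 included, the differences ran from 0.04 to 0.06 in SRG3 cKO and from -0.10 to 0.08 in RORγt KO, and none was called.

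Aldolase cleaves fructose bisphosphate into triose phosphates, and Aldoc encodes the isozyme best known from brain. Its log2 intensity was 8.41, 8.20 and 8.10 in WT, 8.92, 8.69 and 8.72 in SRG3 cKO, and 8.59, 8.75 and 8.52 in RORγt KO. Every knockout array lay above every WT array. Aldoc rose by 0.54 in SRG3 cKO (SE 0.09, 95% interval 0.33 to 0.75, limma adjusted p = 0.0481). The same-numbered arrays of SRG3 cKO and WT differed by 0.51, 0.49 and 0.63. In RORγt KO its difference was 0.39 (95% interval 0.18 to 0.59, adjusted p = 0.111, and 0.0438 without WT array 1). The call sat at the edge of the threshold: it held on leaving out WT array 1 (adjusted p = 0.0313) and was lost on leaving out any other of the 9 arrays (adjusted p up to 0.183), while the difference stayed between 0.47 and 0.63. It was also lost under quantile normalization, narrowly, and with only the SRG3 cKO and WT arrays in the fit (adjusted p = 0.149).

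No other enzyme of the triose steps passed the test. Tpi1, the triose phosphate isomerase, differed from WT by 0.10 in both knockouts. Gapdh, the dehydrogenase often used as a reference gene, differed by 0.10 and 0.12, and Pgk1, the first step that yields ATP, by 0.04 and 0.03. Pgam1, the phosphoglycerate mutase, differed by -0.10 in SRG3 cKO, where all 3 arrays lay below WT (limma adjusted p = 0.441), and by -0.05 in RORγt KO. The probe set shared by Aldoa and Aldoart1 differed by 0.00 and 0.01, with 95% intervals from -0.08 to 0.08 and from -0.06 to 0.09.

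Enolase makes phosphoenolpyruvate, and Eno3 encodes the isozyme best known from muscle. It was 8.70, 8.65 and 8.57 in WT, 8.75, 8.77 and 8.77 in SRG3 cKO, and 8.85, 8.87 and 8.84 in RORγt KO. The 3 groups did not overlap, with SRG3 cKO between the others. Eno3 rose by 0.21 in RORγt KO (SE 0.04, 95% interval 0.12 to 0.30, limma adjusted p = 0.0484), and its difference of 0.13 in SRG3 cKO missed the threshold (adjusted p = 0.289). The RORγt KO call held on leaving out WT array 1 (adjusted p = 0.0335) and was lost on leaving out any other array (adjusted p up to 0.179), with differences from 0.18 to 0.24. It was also lost with only the RORγt KO and WT arrays in the fit (adjusted p = 0.158). Eno2 differed from WT by 0.01 and 0.05, and Pkm, the pyruvate kinase of most tissues outside liver and red cells, by 0.03 and 0.00.

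**Figure D2:**
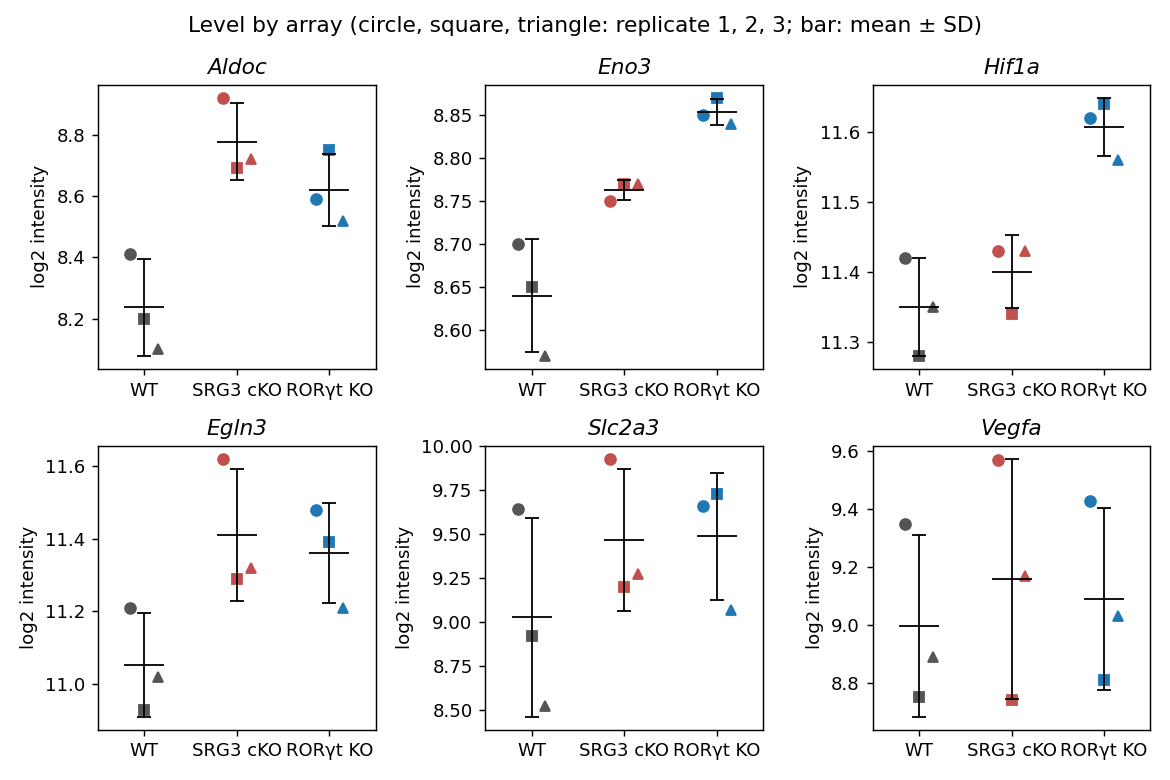
Log2 intensity (vertical axis, a separate range in each panel) of 6 genes in the 3 genotypes (horizontal axis); circles, squares and triangles are replicates 1, 2 and 3, and bars are mean ± SD (n = 3). All knockout arrays lie above WT for Aldoc and Eno3, the lowest RORγt KO array meets the highest WT array at 11.21 for Egln3, RORγt KO lies above both other groups for Hif1a, and array 1 is the highest of each genotype for Egln3 and Vegfa.

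No lactate dehydrogenase or pyruvate dehydrogenase kinase was called. Ldha, the lactate dehydrogenase subunit that favours lactate production, was 9.78, 9.78 and 9.82 in WT, 9.63, 9.86 and 9.95 in SRG3 cKO, and 9.74, 9.80 and 9.81 in RORγt KO. Its differences of 0.02 and -0.01 had 95% intervals from -0.14 to 0.18 and from -0.17 to 0.15 (limma adjusted p = 0.949 and 0.968), and the WT values lay inside the SRG3 cKO range. Ldhb, the other subunit, was 7.75, 7.79 and 7.70 in WT, 7.71, 7.70 and 7.63 in SRG3 cKO, and 7.65, 7.78 and 7.61 in RORγt KO, a difference of -0.07 in both knockouts with overlapping groups. The Pdk kinases switch off pyruvate dehydrogenase. Pdk1, the best known HIF target among them, was 9.36, 9.22 and 9.15 in WT, 9.47, 9.33 and 9.39 in SRG3 cKO, and 9.42, 9.35 and 9.34 in RORγt KO. It differed from WT by 0.15 and 0.13 (adjusted p = 0.385 and 0.405), and WT array 1 overlapped both knockouts. Pdk2 was 7.04, 6.98 and 6.98 in WT, 7.09, 6.95 and 6.98 in SRG3 cKO, and 6.98, 7.0 and 6.87 in RORγt KO, with differences of 0.00 and -0.05. Pdk3 differed from WT by 0.13 in SRG3 cKO, where the groups did not overlap (adjusted p = 0.302), and by 0.09 in RORγt KO.

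Within the HIF system, Hif1a itself was 11.42, 11.28 and 11.35 in WT, 11.43, 11.34 and 11.43 in SRG3 cKO, and 11.62, 11.64 and 11.56 in RORγt KO. All RORγt KO arrays lay above all arrays of both other genotypes, and SRG3 cKO overlapped WT. Hif1a rose by 0.26 in RORγt KO (SE 0.05, 95% interval 0.15 to 0.36, limma adjusted p = 0.0433) and differed by 0.05 in SRG3 cKO (95% interval -0.05 to 0.16, adjusted p = 0.737). Another Hif1a probe set gave 0.21 in RORγt KO and 0.01 in SRG3 cKO, and with the mean of the gene's single-symbol probe sets in place of the brightest the call was lost. It held on leaving out WT array 1 (adjusted p = 0.0335) and was lost on leaving out any other array (adjusted p up to 0.18), with differences from 0.22 to 0.29. It was lost as well with only the RORγt KO and WT arrays in the fit (adjusted p = 0.129).

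Egln3 encodes PHD3, a prolyl hydroxylase that marks HIF-1α for destruction and is itself a HIF target. It was 11.21, 10.93 and 11.02 in WT, 11.62, 11.29 and 11.32 in SRG3 cKO, and 11.48, 11.39 and 11.21 in RORγt KO. SRG3 cKO lay wholly above WT, and the lowest RORγt KO array lay above the highest WT array only before rounding. The difference in SRG3 cKO was 0.36 (SE 0.11, limma adjusted p = 0.242), and the same-numbered arrays differed by 0.41, 0.36 and 0.30. With the replicate number as a block across all 9 arrays it passed the threshold (adjusted p = 0.0439), but not with the block within the 6 paired SRG3 cKO and WT arrays (adjusted p = 0.0858). In RORγt KO it was 0.31 (SE 0.11, adjusted p = 0.269). Egln1, the main prolyl hydroxylase PHD2, differed by 0.13 and 0.11, and Hif1an, the asparagine hydroxylase FIH, by -0.03 and -0.12. Neither was called.

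Neither listed hypoxia target was called, and both varied widely within genotypes. Vegfa, the angiogenic growth factor, was 9.35, 8.75 and 8.89 in WT, 9.57, 8.74 and 9.17 in SRG3 cKO, and 9.43, 8.81 and 9.03 in RORγt KO. Its differences of 0.17 and 0.09 had 95% intervals from -0.35 to 0.68 and from -0.42 to 0.61. Bnip3, a mitophagy receptor, was 9.0, 8.70 and 8.65 in WT, 9.06, 8.77 and 8.95 in SRG3 cKO, and 9.10, 9.10 and 8.95 in RORγt KO. It differed from WT by 0.14 and 0.27 (limma adjusted p = 0.651 and 0.309), and WT array 1 overlapped both knockouts.

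**Figure D3:**
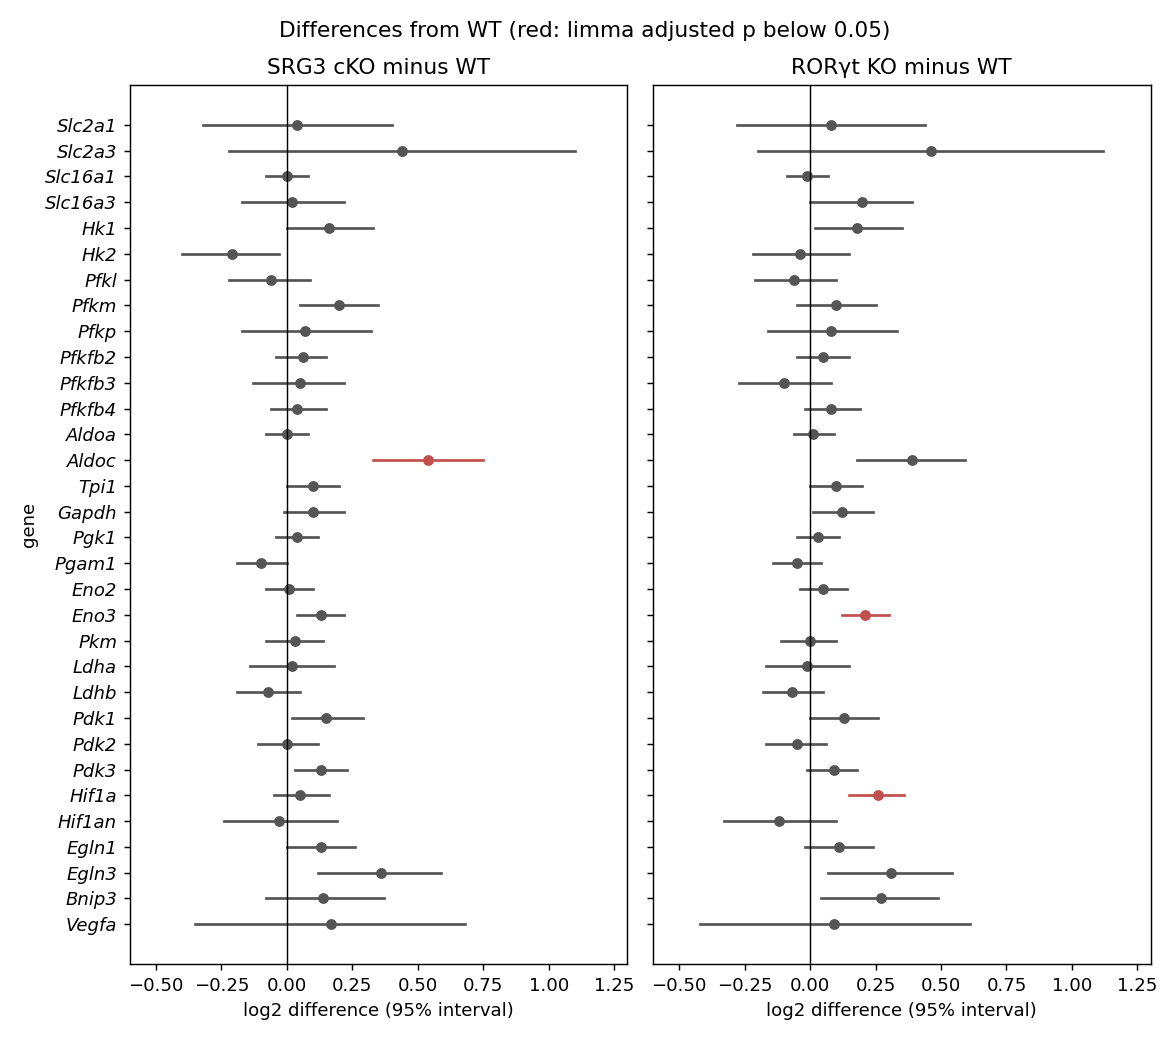
Log2 difference from WT (horizontal axis) of the 32 measured genes (vertical axis) in SRG3 cKO (left) and RORγt KO (right), with 95% intervals from the limma fit. Red marks an adjusted p below 0.05, reached by Aldoc at 0.54 on the left and by Eno3 at 0.21 and Hif1a at 0.26 on the right; Slc2a3 and Vegfa have the widest intervals.

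The spread within genotypes had a pattern of its own, noticed after the values were seen. The array numbered 1 was the highest of its genotype for 26 of 32 members in WT (81.2%, against 38.5% of all rows), for 27 in SRG3 cKO (84.4%, against 41.0%) and for 15 in RORγt KO (46.9%, against 36.4%). The median excess of array 1 over the mean of arrays 2 and 3 was 0.12 in WT, 0.09 in SRG3 cKO and 0.04 in RORγt KO, beside 0.00 over all rows in each. The values in WT and SRG3 cKO exceed the members' median differences from WT of 0.05 and 0.08. Slc2a1, Slc2a3 and Vegfa carried the largest excesses. Slc2a1 was 11.54, 11.07 and 11.09 in WT, 11.56, 11.03 and 11.22 in SRG3 cKO, and 11.53, 11.21 and 11.19 in RORγt KO, so that array 1 stood above the others by 0.47, 0.43 and 0.33. For Vegfa the excess was 0.53, 0.61 and 0.51, and for Slc2a3 it was 0.92, 0.69 and 0.26. The labels do not say what arrays of the same number share, and the part of this in the results was not tested.

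The pooled SD within genotypes was 0.45 for Slc2a3, larger than for 99.9% of all rows, 0.35 for Vegfa (99.8%) and 0.24 for Slc2a1 (99.3%). The steadiest were the probe set shared by Aldoa and Aldoart1 and Pgk1, both at 0.02, then Slc16a1 at 0.03, and the median was 0.08 over the members against 0.07 over all rows. Slc2a3, Vegfa and Slc2a1 were thus among the most variable transcripts of these arrays, and enzymes such as Pgk1 among the steadiest. With each gene centred on its mean over the 9 arrays, WT had member medians of 0.02, -0.10 and -0.11, SRG3 cKO of 0.08, -0.01 and 0.01, and RORγt KO of 0.06, 0.04 and -0.01. WT arrays 2 and 3 were the lowest of the 9 by this measure, and WT array 1 lay among the knockout arrays.

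**Figure D4:**
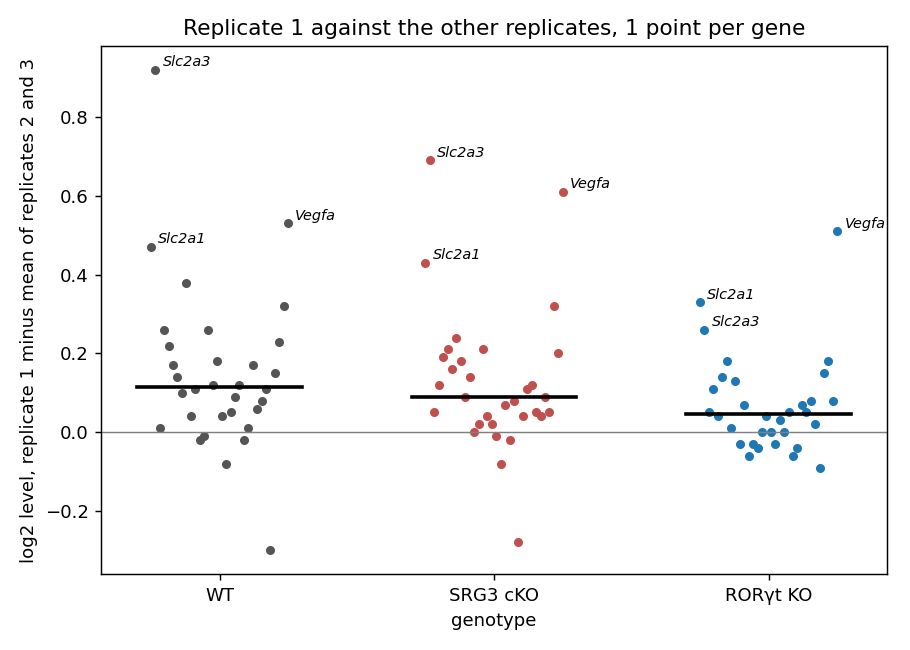
Log2 level in array 1 minus the mean of arrays 2 and 3 (vertical axis) for each of the 32 measured genes (points), by genotype (horizontal axis), with horizontal bars at the medians of 0.12, 0.09 and 0.04. Slc2a1, Slc2a3 and Vegfa are named and sit at or near the top in each genotype.

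Because same-numbered SRG3 cKO and WT arrays deviated together from their group means, that comparison was also read within pairs. Of the 32 members 15 were higher in SRG3 cKO in all 3 pairs (46.9%, against 16.0% of all rows) and 4 were lower in all 3 (12.5%, against 16.5%). Those 4 were Hk2, Pfkl, Pgam1 and Ldhb. With the replicate number as a block across all 9 arrays, RORγt KO included, limma called 204 of all rows in place of 112, and 2 members in place of 1, Egln3 joining Aldoc (adjusted p = 0.0292). With the block within the 6 paired arrays it called 33 rows and 1 member, Aldoc (adjusted p = 0.0455). Markers of CD4 T cells lay higher in SRG3 cKO as well, with a median difference of 0.18 over 5 markers, and 0.11 in RORγt KO, with none called by limma (3 and 1 at an unadjusted p below 0.05). Array 1 was not uniformly the highest for these markers: Cd4 was 11.50, 11.09 and 11.12 in WT, with array 1 highest as for Cd3e, whereas Cd3d was 9.42, 9.58 and 9.56, with array 1 lowest as for Cd28. In SRG3 cKO array 1 was the highest for Cd4, Cd3e and Cd3d only, and in RORγt KO for Cd4, Cd3e and Cd28 only. The part of these markers in the members' differences was not tested.

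The knockouts were also compared with each other. None of the 32 members was called by limma in SRG3 cKO against RORγt KO, beside 1.19% of all rows (277, with 129 higher and 148 lower in SRG3 cKO). At an unadjusted p below 0.05 there was 1 member, Hif1a, lower in SRG3 cKO. No member was wholly higher in SRG3 cKO (7.72% of all rows were), and 2 were wholly lower (6.78% of all rows), Eno3 and Hif1a. The Hif1a difference was -0.20 (adjusted p = 0.0972) and the Eno3 difference -0.09 (adjusted p = 0.488). The rise of Hif1a in RORγt KO is therefore not shown to differ from its difference in SRG3 cKO at this threshold. The median over the members was 0.00, as over all rows, and all 32 differed by less than 0.25 in either direction.

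Other genes of these pathways were read from 5 further lists. The list of further HIF-system and hypoxia-induced genes had 26 of 30 measured. None was called by limma in any comparison (3, 4 and 0 at an unadjusted p below 0.05 in SRG3 cKO against WT, RORγt KO against WT and between the knockouts), and 19 lay above WT in SRG3 cKO (73.1%, against 46.5% of all rows) and 22 in RORγt KO (84.6%, against 48.4%), with medians of 0.07 and 0.11. Ndrg1, a stress-induced gene known as a hypoxia target, was 10.38, 9.62 and 9.32 in WT, 10.48, 10.13 and 10.15 in SRG3 cKO, and 10.46, 10.40 and 9.93 in RORγt KO. Its differences of 0.48 and 0.49 missed the threshold (limma adjusted p = 0.513 and 0.447), and WT array 1 was again as high as the knockouts. Without WT array 3 they were 0.25 and 0.27, and without WT array 1 they were 0.78 and 0.79. Adm, which encodes the peptide adrenomedullin, was 6.14, 6.11 and 6.01 in WT and 6.50, 6.30 and 6.27 in SRG3 cKO, wholly above WT by 0.27 (adjusted p = 0.228). These values lay below the array medians of 7.12 to 7.14. Adm passed with the replicate block across all 9 arrays (adjusted p = 0.0468) and not with the block within the 6 paired arrays (adjusted p = 0.131). Car12, a carbonic anhydrase, differed from WT by 0.00 and 0.30, and Ddit4, an inhibitor of mTORC1, by 0.22 and 0.09.

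Of other glycolytic and gluconeogenic isozymes 23 of 26 were measured, and 1 was called, between the knockouts. Of the 23, 8 lay above WT in SRG3 cKO (34.8%, against 46.5% of all rows) and 14 in RORγt KO (60.9%, against 48.4%). Adpgk, the ADP-dependent glucokinase, was 8.82, 8.70 and 8.75 in WT, 8.88, 8.88 and 8.91 in SRG3 cKO, and 8.59, 8.51 and 8.70 in RORγt KO. It was 0.29 higher in SRG3 cKO than in RORγt KO (limma adjusted p = 0.037), with differences from WT of 0.13 and -0.15 that were not called. The call held without RORγt KO array 3 or WT array 1 and was lost on leaving out any other array (adjusted p up to 0.136). It was also lost with only the SRG3 cKO and RORγt KO arrays in the fit (adjusted p = 0.0906). Pck1 and Pck2, the cytosolic and mitochondrial forms of phosphoenolpyruvate carboxykinase, differed from WT by -0.23 and 0.36 in SRG3 cKO (adjusted p = 0.144 and 0.397), and Tigar, a fructose bisphosphatase, by -0.19 in RORγt KO.

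No gene of the pentose phosphate pathway (6 of 8 measured) or of pyruvate entry into mitochondria (10 of 11) was called by limma. At an unadjusted p below 0.05 each list had 1 gene in SRG3 cKO and none in RORγt KO against WT. All 6 pentose phosphate genes lay below WT in RORγt KO, with differences from -0.09 to -0.02. Pgd, a dehydrogenase of the oxidative branch, was 10.51, 10.50 and 10.46 in WT and 10.34, 10.21 and 10.20 in SRG3 cKO, wholly below WT at -0.24 (limma adjusted p = 0.124). Pgls differed by -0.10 there, and Rpe and H6pd by -0.09 each in RORγt KO. Pdpr, the regulatory subunit of pyruvate dehydrogenase phosphatase, was 8.73, 8.67 and 8.61 in WT and 8.89, 8.86 and 8.83 in SRG3 cKO, wholly above WT at 0.19 (adjusted p = 0.107). Pdhx differed by -0.10 in SRG3 cKO, Pdha1 by -0.09 in RORγt KO, and Pdk4 by -0.08 between the knockouts.

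Of the 19 regulators of glucose use in T cells, all measured, limma called none (2 in SRG3 cKO and 4 in RORγt KO against WT at an unadjusted p below 0.05). Among them 13 lay above WT in SRG3 cKO (68.4%, against 46.5% of all rows) and 10 in RORγt KO (52.6%, against 48.4%). Irf4, a transcription factor that supports glycolysis after T cell receptor signalling, was 11.30, 11.19 and 11.18 in WT, 11.60, 11.40 and 11.47 in SRG3 cKO, and 11.32, 11.31 and 11.28 in RORγt KO. SRG3 cKO lay wholly above WT, at 0.27 (limma adjusted p = 0.0861). With the replicate block it passed across all 9 arrays (adjusted p = 0.0433) and not within the 6 paired arrays (adjusted p = 0.103). Txnip, which restrains glucose uptake, was 10.06, 9.73 and 9.50 in WT, 10.28, 9.80 and 10.04 in SRG3 cKO, and 10.32, 10.22 and 10.01 in RORγt KO. Its differences of 0.28 and 0.42 missed the threshold (adjusted p = 0.553 and 0.303). Mlx, the partner of the glucose-sensing factors, differed by -0.19 in RORγt KO, and Tsc1, an inhibitor of mTORC1, by 0.22 between the knockouts (adjusted p = 0.237 and 0.0761).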

How the data were processed

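Total RNA of 9 cultures was hybridised to 9 GeneChip arrays, 3 per genotype. The authors deposited log2 intensities per probe set, and their normalization is not given in the sources used. The array medians of 7.12 to 7.14 were left as deposited, and the number of arrays limits the precision.

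Annotation gave 1 symbol to 23521 of the 41345 probe sets, several to 1814 and none to 16010. Symbols were updated by gene ID with RefSeq (GRCm38.p6, 23328 matched). For each of 22180 genes the brightest probe set by mean among those with 1 symbol was kept. To these were added 1063 rows from probe sets naming several genes, for symbols with no other, which gave 23243 rows. Among members this holds for Aldoa, and no other gene is named from such a probe set.

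All arrays were fitted together with limma 3.58.1 in R 4.3.3. The method was tested on simulated data with independent noise and no effect shared by same-numbered arrays. The simulated shifts were larger than the called differences of Eno3 and Hif1a, so that test does not cover differences of their size. P-values were adjusted by Benjamini-Hochberg over all 23243 rows per comparison with a threshold of 0.05, and a gene is said to rise or fall only past it. SE and 95% intervals are from the fit. The members and lists were chosen with earlier results of these data known. Named in full are members that were called and, per role group and comparison, the member with the largest difference; per further list, called genes and the 2 with the largest difference.

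Replicate numbers come from the labels. Deviations from group means of same-numbered arrays correlated at 0.289, 0.188 and 0.115 for SRG3 cKO and WT, which were taken as paired. RORγt KO was taken as paired neither with WT (0.214, -0.00263 and 0.184) nor with SRG3 cKO (0.227, -0.00212 and 0.142). The fit had no term for the replicate number, and so ignored the pairing, unless the block is named. Alternatives were quantile normalization, array weights, a variance trend, other handling of probe sets, only the groups compared, the replicate block and leaving out each array; added after seeing the data were the block within 6 arrays and a fit without all arrays numbered 1.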

Additional observations from a re-analysis of the deposited data

How the results depend on the processing

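Leaving out each array in turn, limma called 18 to 88 of all rows in SRG3 cKO against WT (112 with all arrays), 50 to 315 in RORγt KO against WT (213) and 143 to 264 between the knockouts (277). The members called numbered 0 to 1, 0 to 3 and 0, the higher counts without WT array 1. Their median difference ranged from 0.03 to 0.10, from 0.04 to 0.12 and from -0.02 to 0.02. With only the compared groups in the fit, which leaves fewer arrays to estimate the spread, 14, 47 and 147 rows and 0 members were called. With the replicate block, 204 rows and 2 members were called in SRG3 cKO against WT and 391 rows and 1 member (Hif1a; Eno3 at adjusted p = 0.0557) in RORγt KO against WT, where the numbers were not taken as paired. With the block and only the SRG3 cKO and WT arrays, 33 rows and 1 member (Aldoc) were called, and Egln3, Adm and Irf4, which passed with the block across all 9 arrays, did not pass. Without the 3 arrays numbered 1, the counts were 1, 27 and 18 rows and 0 members. Quantile normalization left 0 members called in SRG3 cKO against WT, and the mean of probe sets left 1 in RORγt KO against WT, Eno3. The cause of the last 2 was not tested. Over these alternatives the difference changed sign for 10, 7 and 18 of the 32 members in the 3 comparisons, none of them called and none above 0.17 in size with all arrays. Examples, with the listed pathway gene Pdk4 added, are Vegfa in SRG3 cKO against WT (-0.04 without SRG3 cKO array 1, up to 0.37 without array 2) and, between the knockouts, Egln3 (-0.02 without RORγt KO array 3 and -0.05 without SRG3 cKO array 1, up to 0.11 without RORγt KO array 1), Ldha (-0.04 without SRG3 cKO array 3, otherwise up to 0.12) and Pdk4 (-0.14 without SRG3 cKO array 3, 0.02 without array 1 and 0.01 without the 3 arrays numbered 1). The replicate block across all 9 arrays changed no other call of a member. With 3 arrays a group, differences smaller than the intervals printed beside them were not detectable.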
